A study of Mus musculus with 6 samples.

Results

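Gap43 and 4 related genes, Basp1, Marcks, Marcksl1 and Nrgn, were followed through a pulldown of RNA bound to the neuronal RNA-binding protein HuD in mouse hippocampus. Members were all probe sets that the array annotation pairs with 1 of these 5 symbols. The 5 genes are among 18193 that a probe set names singly, and they have 14 of the 45037 probe sets tested, with 1 each for Gap43, Basp1 and Nrgn, 7 for Marcks and 4 for Marcksl1. A probe set is a group of short probes whose brightness is combined into 1 signal, and probe sets of 1 gene are not replicates of a condition. The values are intensities on a linear scale from 6 Affymetrix arrays.

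In the HuD group (3 arrays) RNA had been recovered on protein-G beads with an antibody to the myc tag of transgenic HuD. In the IgG group (2 arrays) the beads carried non-immune IgG, which measures what sticks to beads and antibody. The input group (1 array) was total RNA. The labels describe all 6 as hippocampus. They do not give the strain, age, sex or number of animals or the promoter of the transgene, and do not say whether the tissue behind the IgG and input arrays also carried the transgene. Nor is it stated whether each array stands for its own animal or its own pulldown. The p-values therefore rest on the variation among the 3 HuD arrays and between the 2 IgG arrays, which could be technical. The single input array adds nothing to this estimate. Arrays are named here as HuD array 1 to 3 and IgG array 1 and 2, in the order of deposit. HuD array 1, IgG array 1 and the input share 1 form of title ending, and HuD arrays 2 and 3 and IgG array 2 share another.

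As background, Gap43, Marcks and Basp1 encode abundant proteins of the inner face of the neuronal plasma membrane. Each carries a basic stretch that binds calmodulin and acidic lipids such as phosphatidylinositol bisphosphate, and phosphorylation by protein kinase C (PKC) releases these partners. They are known for shaping the actin cytoskeleton under the membrane of growth cones and nerve endings. Marcksl1 is the close relative of Marcks and is also made in many cells outside the nervous system. Nrgn encodes neurogranin, which shares the calmodulin-binding IQ motif and PKC site of Gap43 but lies in dendrites and spines, so the name growth-cone protein does not describe it. HuD, the product of Elavl4, binds U-rich and AU-rich stretches of mRNAs, and Gap43 mRNA is among its best studied targets.

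The 5 genes did not move together. Gap43 signal was 2.95-fold lower in the HuD pulldowns than with IgG, and 3 of 7 Marcks probe sets rose 2.94-fold to 5.27-fold. The probe sets of Basp1, Marcksl1 and Nrgn did not pass the test. Read by its brightest probe set, Marcks (1.85-fold higher) also did not pass, and it stood near Marcksl1 (1.75-fold) and Basp1 (1.56-fold). Values were compared as log2(signal + 32) with limma, a linear model fitted to all 45037 probe sets and adjusted by Benjamini-Hochberg over all of them, with a threshold of 0.05. Errors after ± are standard errors of a log2 difference unless SD is named. Because the arrays had been brought to 1 common average, a difference states a gene's share of the RNA on an array, not its amount. Of all probe sets, 5.73% were called higher with HuD than with IgG and 8.7% lower. Among the brighter probe sets, those above the median of mean log2 signal, these shares were 11.1% and 15.2%. Of the 14 members, 13 were among these brighter probe sets, so the shares of 11.1% and 15.2% are the closer comparison for them. Of the 14 members, 3 were called higher and 1 lower, beside 14.4% of all probe sets called in either direction. The 3 higher ones share 1 gene and 1 source sequence, so they are not independent of each other. The median log2 difference was 0.72 over the 14 member probe sets and −0.08 over all probe sets. As 7 of the 14 read Marcks and 4 read Marcksl1, this median does not describe the 5 genes. By gene it was −1.56 for Gap43, 0.64 for Basp1, 0.88 for Marcks, 0.53 for Marcksl1 and 0.23 for Nrgn.

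Gap43, the growth-cone protein, was read by 1 probe set (1423537_at). Its signal was 507.7, 727.7 and 305.1 with HuD, 1612.2 and 1386.7 with IgG, and 1497.7 in the input. Each HuD array was below both IgG arrays and the input, and the input lay between the IgG arrays. The mean was 513.5 ± 211.4 (SD, n = 3) with HuD and 1499.5 ± 159.5 (SD, n = 2) with IgG. Gap43 fell 2.95-fold (log2 difference −1.56 ± 0.34, limma adjusted p = 0.0205). The difference was −1.61 within the first title form and −1.49 within the second. With 1 array left out the direction stayed, but the call was lost in 4 of 5 cases: with HuD array 1 omitted (−1.59), with HuD array 3 omitted (−1.25), and with either IgG array 1 (−1.46) or IgG array 2 (−1.67) omitted, at limma adjusted p between 0.0584 and 0.101.

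Marcks, the PKC substrate that cross-links actin at the membrane, divided by probe set. On this array design a plain _at ending marks a probe set meant for 1 transcript, while _x_at marks one in which some probes also match other sequences, and _s_at one shared by several transcripts. The plain probe sets 1415971_at, 1415973_at and 1415972_at come from the same source sequence in the annotation. The signal of 1415971_at was 4674.3, 7362.3 and 6269.1 with HuD, 988.6 and 1250.3 with IgG, and 1281.6 in the input. All HuD arrays thus stood far above the other arrays, and the IgG arrays were both below the input. The mean was 6101.9 ± 1351.7 (SD, n = 3) with HuD and 1119.5 ± 185.1 (SD, n = 2) with IgG. This probe set rose 5.27-fold over IgG (2.40 ± 0.27, limma adjusted p = 0.00368), and the difference was 2.21 and 2.41 within the title forms.

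The signal of 1415973_at was 3374.2, 4517.0 and 3515.4 with HuD, 904.3 and 877.6 with IgG, and 919.1 in the input. The HuD arrays did not overlap with the others, and the IgG arrays and the input lay close together. It rose 4.12-fold over IgG (2.04 ± 0.23, limma adjusted p = 0.00368). The signal of 1415972_at was 647.6, 1018.6 and 750.9 with HuD, 330.3 and 184.5 with IgG, and 218.8 in the input. It rose 2.94-fold (1.56 ± 0.30, limma adjusted p = 0.0141), although the IgG arrays of this dimmer probe set differed 1.79-fold between themselves. It was no longer called once IgG array 2 (1.19), HuD array 3 (1.59) or HuD array 1 (1.70) was omitted. The calls of 1415971_at and 1415973_at held without any 1 of the HuD or IgG arrays.

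The Marcks probe sets with the _x_at ending showed a smaller difference from IgG. The signal of 1456700_x_at, the brightest of the gene, was 4980.1, 6791.7 and 5513.4 with HuD, 3269.4 and 2902.6 with IgG, and 1829.5 in the input. Its HuD arrays were above both IgG arrays, which in turn were above the input. The difference from IgG was 0.88 ± 0.25 and just missed the threshold (limma adjusted p = 0.0513). With the dimmer probe sets left out of the test it passed (limma adjusted p = 0.0142), as it did with 75th percentile centring (1.20) and median centring (1.04). The signal of 1456028_x_at was 2036.4, 2600.5 and 1976.4 with HuD, 1392.8 and 1108.0 with IgG, and 436.5 in the input. It had the same order of the groups, with a difference from IgG of 0.80 ± 0.24 (limma adjusted p = 0.0607). It passed with the dimmer probe sets left out (limma adjusted p = 0.0295), with 75th percentile centring (1.12) and with median centring (0.95). Passing was common in these settings, which called 3309 of 22518, 8624 of 45037 and 3717 of 45037 probe sets higher with HuD, in that order.

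The separation between 1415971_at and the brightest _x_at probe set of Marcks is seen within each array. The signal of 1415971_at divided by that of 1456700_x_at was 0.939, 1.08 and 1.14 on the HuD arrays, 0.302 and 0.431 on the IgG arrays, and 0.7005 in the input. The groups did not overlap, and the input lay between them. This ratio was formed after the values were seen and was not tested. The remaining Marcks probe sets were dim on all arrays. The signals of 1437034_x_at lay between 17.0 and 58.7 and those of 1430311_at between 6.5 and 28.2, with HuD and IgG arrays overlapping in both. Their differences from IgG were 0.37 ± 0.32 and 0.16 ± 0.22 and did not pass, and at this brightness log2(signal + 32) compresses any change.

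**Figure D1:**
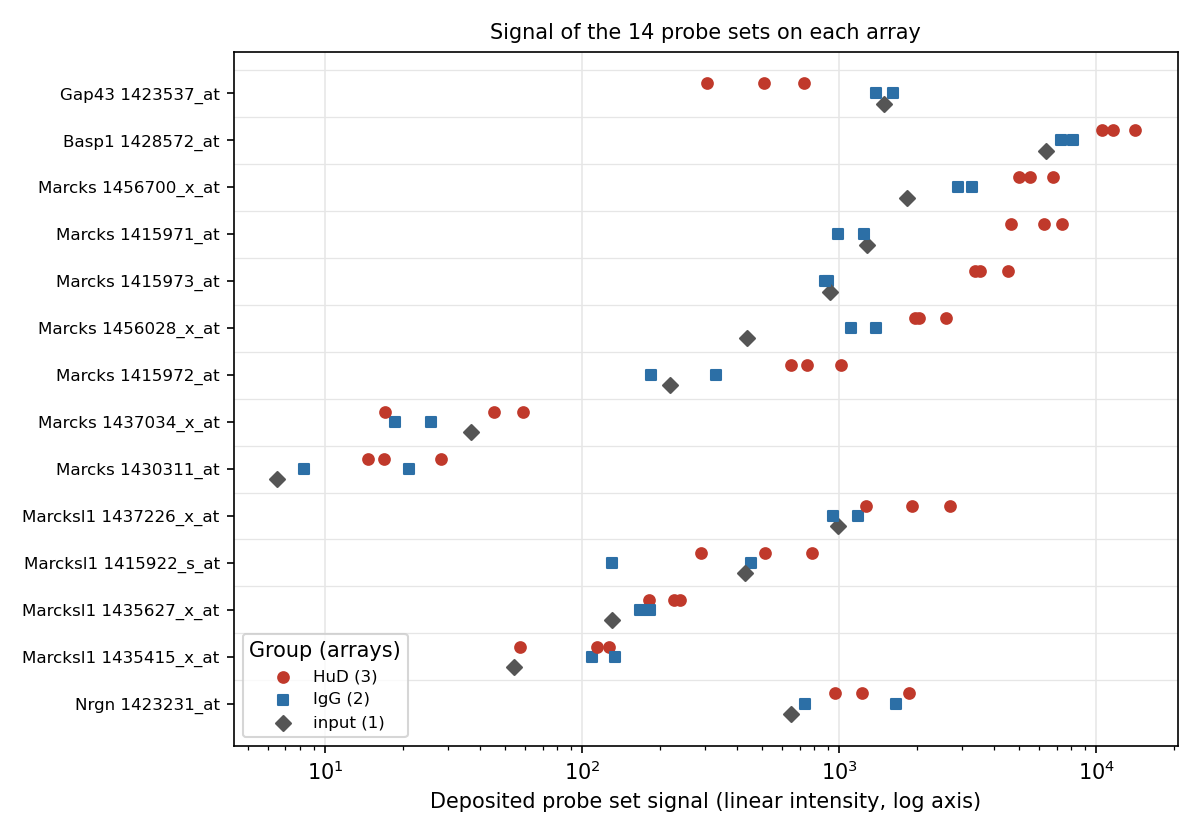
Deposited signal (log axis) of each of the 14 probe sets on each array, with HuD pulldowns as circles, IgG pulldowns as squares and the input as a diamond. The HuD arrays lie below the other groups for Gap43 (305.1 to 727.7 against 1386.7 to 1612.2 with IgG) and above them for 5 of the 7 Marcks probe sets, and levels cannot be compared between probe sets.

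Basp1, which like Marcks is anchored to the membrane by a fatty acid and sequesters acidic lipids, had 1 probe set (1428572_at). Its signal was 10553.3, 14087.7 and 11623.6 with HuD, 7311.8 and 8106.6 with IgG, and 6356.0 in the input. The groups did not overlap, with HuD highest and the input lowest. The difference from IgG was 0.64 ± 0.27, a 1.56-fold higher value that did not pass over all probe sets (limma adjusted p = 0.162), with a 95% interval of 0.02 to 1.26. It passed with the dimmer probe sets left out (limma adjusted p = 0.0423) and with 1 probe set for each of the 9096 brighter genes (limma adjusted p = 0.0233). It also passed with 75th percentile centring (0.95), which moved the median of all probe sets to 0.24. These settings called 3309 of 22518, 1958 of 9096 and 8624 of 45037 probe sets higher with HuD, in that order. Within the title forms the difference was 0.53 and 0.66.

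Marcksl1 was read by 4 probe sets, of which 0 passed the test against IgG in limma, and 1, the brightest, had an unadjusted p under 0.05. Of all probe sets, 28.9% had an unadjusted p under 0.05 in limma in this comparison. The brightest, 1437226_x_at, had signals of 1913.4, 2686.7 and 1272.4 with HuD, 1186.8 and 941.6 with IgG, and 988.5 in the input. The HuD arrays were above the IgG arrays, though HuD array 3 by little. The difference was 0.81 ± 0.32 (limma adjusted p = 0.142, 95% interval 0.06 to 1.55), and it was 0.67 and 0.95 within the title forms. The HuD and IgG arrays overlapped for the other 3 probe sets. The signal of 1415922_s_at was 513.0, 781.6 and 288.8 with HuD against 452.0 and 130.5 with IgG, a difference of 0.90 ± 0.51. The differences were 0.25 ± 0.23 for 1435627_x_at, at signals of 129.9 to 239.3 over all arrays, and −0.27 ± 0.31 for 1435415_x_at, at 54.3 to 134.5. The sign of the last turned with quantile normalization (0.06) and 75th percentile centring (0.05). With 75th percentile centring 1437226_x_at (1.12) and 1415922_s_at (1.21) passed. With 1 probe set for each brighter gene, 1437226_x_at also did (limma adjusted p = 0.0467). The first of these settings called 8624 of 45037 probe sets higher with HuD, and the second 1958 of 9096.

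Nrgn, the dendritic member, varied as much within the groups as between them. Its probe set 1423231_at had signals of 1225.3, 959.2 and 1871.9 with HuD, 732.3 and 1659.6 with IgG, and 647.5 in the input. The highest arrays were HuD array 3 and IgG array 2, the arrays whose titles carry the number 2, and all pulldowns were above the input. The difference between HuD and IgG was 0.23 ± 0.39 with a 95% interval of −0.67 to 1.13 (limma adjusted p = 0.759). It was 0.72 within the first title form and −0.30 within the second. The sign turned without HuD array 3 (−0.03) and without IgG array 1 (−0.34).

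Counted over the members, the 3 HuD arrays lay above both IgG arrays for 7 probe sets, below both for 1 and overlapped with them for 6. Over all probe sets, 16% were above in this way and 28.2% below. The 7 probe sets above were 5 of Marcks, the 1 of Basp1 and the brightest of Marcksl1, and the 5 of Marcks read 1 gene. How arrays are scaled shifts these comparisons. With the deposited scaling 60.3% of all calls were lower with HuD, against 46.5% after quantile normalization, 46.7% with median centring and 23.3% with 75th percentile centring. Gap43 was called lower and 1415971_at, 1415973_at and 1415972_at of Marcks were called higher under each of these.

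The comparison with total RNA asked whether the same differences hold against the starting material, using an input of 1 array that was assumed to vary like the others. Over all probe sets 2.72% were called higher with HuD than in the input and 3.21% lower, 5.93% in all. Gap43 was lower at an unadjusted p under 0.05 in limma, a level that 20.4% of all probe sets reached in either direction. Among the members 5 were called higher, all of Marcks, and 0 lower. The 5 were the plain probe sets 1415971_at (2.20 ± 0.35), 1415973_at (2.00 ± 0.30) and 1415972_at (1.72 ± 0.38) and also 1456700_x_at (1.63 ± 0.32) and 1456028_x_at (2.24 ± 0.30), with limma adjusted p between 0.0177 and 0.0392. Against the input, these plain and _x_at probe sets of Marcks thus gave differences of similar size. The dim Marcks probe sets 1437034_x_at (0.03 ± 0.40) and 1430311_at (0.42 ± 0.27) did not pass. Gap43 was 2.96-fold lower than in the input (−1.56 ± 0.43), which did not pass over all probe sets (limma adjusted p = 0.0723) and passed with the dimmer probe sets left out (limma adjusted p = 0.02). Basp1, at 0.91 ± 0.34, missed the threshold over all probe sets and passed with the dimmer ones left out (limma adjusted p = 0.038). With the dimmer ones left out, 2196 of 22518 probe sets were called higher with HuD than in the input and 3515 lower. Nrgn was at 0.97 ± 0.50 and the 4 Marcksl1 probe sets between 0.18 and 0.90, and these 5 did not pass. The scaling also moved this split, with 54.1% of all calls lower as deposited, 46.1% after quantile normalization, 22.2% with 75th percentile centring and 66.6% with median centring. No member kept its call when HuD array 1, 2 or 3 was left out or with the title form as a block, settings in which 0 of the 45037 probe sets were called in either direction. The differences of the 5 Marcks probe sets in these settings lay between 1.50 and 2.38.

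The comparison of IgG with input describes the background of the beads. Of 45037 probe sets, 0 (0%) were called by limma in either direction, and 3326 had an unadjusted p under 0.05 in limma. Gap43 was at −0.002 ± 0.45, Basp1 at 0.28 ± 0.36 and Nrgn at 0.74 ± 0.53. The plain Marcks probe sets were at −0.20 ± 0.37, −0.04 ± 0.31 and 0.16 ± 0.40, while 1456700_x_at was at 0.74 ± 0.34 and 1456028_x_at at 1.44 ± 0.32. The last was the 1 member with an unadjusted p under 0.05 in limma, at a limma adjusted p of 0.564. The Marcksl1 probe sets lay between −0.72 ± 0.68 and 0.83 ± 0.41. These intervals are wide, and a difference that did not pass is not shown to be absent. The comparisons share arrays, so the 3 sets of differences are not independent of each other.

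**Figure D2:**
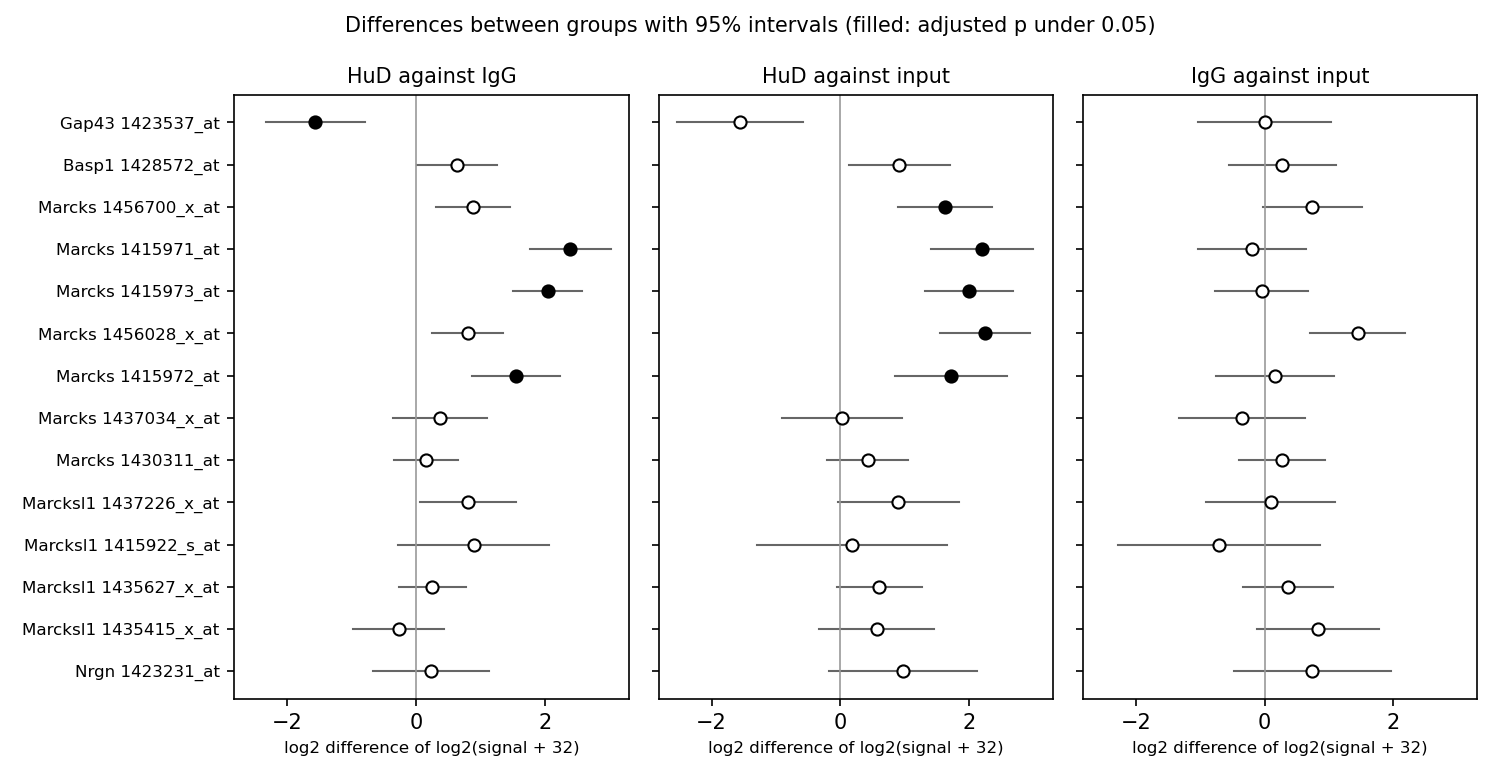
Differences of log2(signal + 32) between groups for each of the 14 probe sets, with 95% intervals as lines and filled points for limma adjusted p under 0.05. Gap43 is lower with HuD than with IgG (−1.56), the plain Marcks probe sets are higher (1.56 to 2.40), and in the third panel 0 of the points are filled.

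A ratio of members within an array depends little on how the array was scaled, so each gene's brightest probe set (signal + 32) was divided by those of the others, in 10 pairs. The log2 ratio of Marcks (1456700_x_at) to Gap43 was 3.22, 3.17 and 4.04 on the HuD arrays, 1.01 and 1.05 on the IgG arrays, and 0.28 in the input. The HuD arrays were all higher, by 2.45 on average. The ratio of Marcksl1 to Gap43 was 1.85, 1.84 and 1.95 with HuD, −0.43 and −0.54 with IgG, and −0.58 in the input, the smallest spread within HuD arrays of the 4 ratios to Gap43. That of Basp1 to Gap43 was 2.20 higher with HuD and that of Nrgn to Gap43 1.79 higher, also with no overlap.

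With 3 arrays against 2 an exact permutation test can reach no p below 0.1. The two-sided exact permutation p was 0.1 for the Marcks, Marcksl1 and Basp1 ratios to Gap43 and 0.2 for that of Nrgn, or 0.25 and 0.4 adjusted over the 10 pairs. Among the 6 pairs without Gap43, 1 did not overlap. This was Marcks to Basp1, higher with HuD by 0.25 (exact permutation p = 0.1, adjusted 0.25), a difference that fell to 0.09 without IgG array 2 and rose to 0.41 without IgG array 1. The other 5 had differences of 0.08 to 0.65 in size and overlapping arrays, with exact permutation p between 0.5 and 1. The HuD and IgG arrays were thus separate in each of the 4 ratios to Gap43 and in 1 of the 6 ratios without it. The 4 ratios share 1 denominator and are not independent of each other. For Gap43 alone the HuD arrays were all below the IgG arrays, as they were for 28.2% of all probe sets. Each ratio was turned so that its mean was higher with HuD. The share of other genes whose ratio to Gap43 separates was not measured.

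**Figure D3:**
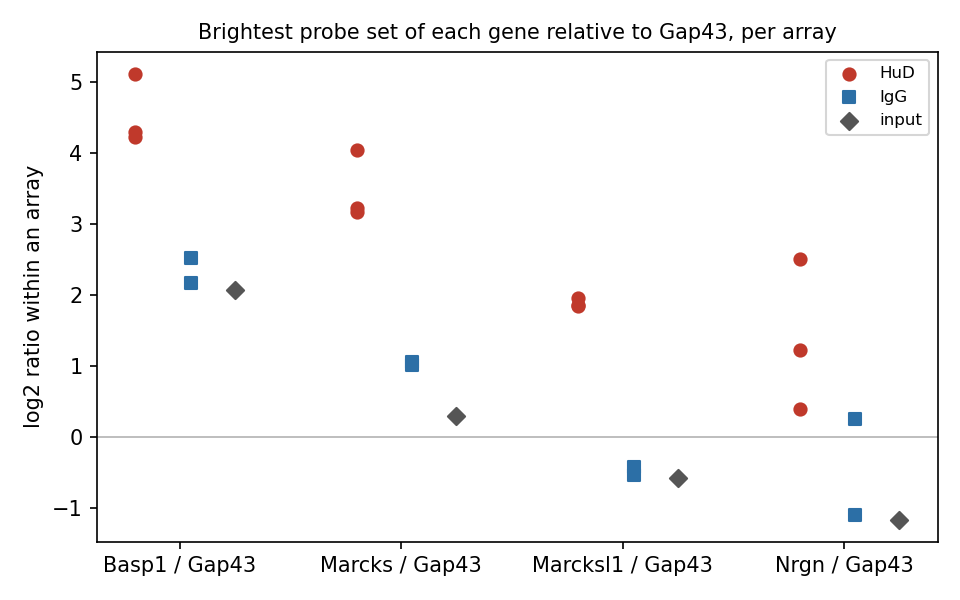
Log2 ratio of the brightest probe set of Basp1, Marcks, Marcksl1 and Nrgn to that of Gap43 on each array (circles HuD, squares IgG, diamond input). For each gene the 3 HuD arrays lie above both IgG arrays and the input, by the least for Nrgn (lowest HuD array 0.38, highest IgG array 0.25), and heights cannot be compared between genes. The ratios share the Gap43 denominator and are not independent of each other.

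Genes whose pattern over the 6 arrays was most like that of each member were ranked by the root mean squared difference of log2 values after each probe set's mean was removed, among 11446 other genes. For Gap43 the nearest were Mrpl18 (0.10), Fbxl15 (0.11) and Ppp1r1b (0.12). For Marcks they were Fam184b (0.05), Dpysl2 (0.07) and Atrx (0.07), and for Marcksl1 Akt1s1 (0.08), Srrm4 (0.09) and Atp6v1h (0.12). For Basp1 they were Upf1 (0.06), Dclre1b (0.07) and Hsp90aa1 (0.08), and for Nrgn Ppm1d (0.19), Notch2 (0.19) and Skil (0.20). Among the members themselves the nearest pair was Basp1 and Marcks (0.27), and Gap43 was at least 1.19 from each of the others. These are descriptions over 6 arrays that fall into 3 groups.

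The other genes of the pathway were taken as 5 lists, each gene read by its brightest probe set. Over all 18193 genes read in this way, 8.35% were called higher with HuD than with IgG and 12.1% lower, and the median difference was −0.11. Of 8 PKC isoforms 2 were higher and 1 lower (median −0.52). The atypical isoforms divided, with Prkci 2.97-fold higher (1.57 ± 0.24) and Prkcz 3.24-fold lower (−1.70 ± 0.29), and Prkce was 1.93-fold higher (0.95 ± 0.24), with limma adjusted p of at most 0.0343. Prkcq was at −0.79 ± 0.29 and did not pass. The classical isoforms Prkca (−0.29 ± 0.23) and Prkcb (−0.45 ± 0.23), which are activated by calcium and lipid and are named here after their values were seen, did not pass.

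Of 8 calmodulin and IQ-motif genes 1 was higher and 1 lower (median −0.58). The scaffold gene Strn was at 0.86 ± 0.23 and the actin-binding Iqgap1 at −0.94 ± 0.23, with limma adjusted p of at most 0.0404. The IQ-motif genes Pcp4 (−1.12 ± 0.33, limma adjusted p = 0.0568) and Pcp4l1 (−1.10 ± 0.31, limma adjusted p = 0.0502) just missed the threshold. Both passed as lower with the dimmer probe sets left out, a setting that called 5861 of 22518 probe sets lower. Pcp4 also passed with quantile normalization (−1.15). With 75th percentile or median centring 0 genes of this list were called lower. Of 15 phosphoinositide enzymes 1 was higher and 3 lower (median −0.49). The lipid kinase Pi4ka fell 3.77-fold (−1.92 ± 0.25), Plcg1 2.59-fold (−1.37 ± 0.30) and the diacylglycerol kinase Dgkz 2.45-fold (−1.29 ± 0.28), while Plcb1 rose 2.02-fold (1.01 ± 0.24), with limma adjusted p of at most 0.0276. Of the 4 other probe sets of Plcb1 0 had the sign of the brightest, and of the 2 others of Plcg1 also 0 did.

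Of 24 growth-cone actin and membrane partners 1 was higher and 3 lower (median 0.03). The raft proteins Flot2 (−1.85 ± 0.22) and Flot1 (−1.61 ± 0.29) and the spectrin gene Sptan1 (−1.37 ± 0.25) fell, and the actin-binding Pfn1 rose (1.79 ± 0.29), with limma adjusted p of at most 0.0116. The signal of Pfn1 was dim outside the HuD arrays, at 39 and 33.3 with IgG and 41.5 in the input, against 152.9 to 288.9 with HuD. Of 12 genes for RNA-binding proteins listed as regulators of Gap43 mRNA, a list made with earlier results of these arrays in view, 7 were higher and 0 lower (median 1.14). They were led by Elavl1 (3.06 ± 0.39), the splicing repressor Ptbp2 (2.88 ± 0.29), Khsrp (2.03 ± 0.39) and Fmr1 (1.68 ± 0.25), with limma adjusted p of at most 0.0146, and 0 of the 2 other probe sets of Fmr1 had the sign of the brightest. Elavl4, the gene of HuD, was also higher (1.46 ± 0.23). It falls outside the rule for named genes and is given after its values were seen, and whether its probe set reads the transgene is not known here. Against the input, where 4.23% of all genes were called higher and 4.99% lower, 7 of these 12 were higher and 0 lower. In the same comparison the PKC isoforms had 1 higher and 1 lower, the calmodulin and IQ-motif genes 0 and 0, the phosphoinositide enzymes 0 and 1, and the actin and membrane partners 1 and 2.

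Of the 17 called genes that the naming rule took from the lists, which leaves out Elavl4, 5 remained called without HuD array 1, 11 without HuD array 2, 6 without HuD array 3, 12 without IgG array 1 and 14 without IgG array 2. The direction of each held in these settings. Iqgap1 was lost without each array (−0.84 to −1.03) and also with the 3 other scalings (−0.63 to −0.79), the title form as a block (−0.92) and the title number as a block (−0.84). Of its 6 other probe sets 3 had the sign of the brightest. Prkce was lost without HuD arrays 1, 2 and 3 and IgG array 1 (0.77 to 0.99). Strn was lost without each HuD array and IgG array 2 (0.69 to 0.90), Plcb1 without the same arrays (0.84 to 1.05) and Plcg1 without each HuD array and IgG array 1 (−0.96 to −1.49). Prkce, Strn and Plcb1 also lost their calls with quantile normalization. Without HuD array 1 Prkcz (−1.61), Prkci (1.57), Dgkz (−1.11), Pfn1 (1.84), Flot1 (−1.58), Sptan1 (−1.26) and Fmr1 (1.60) lost theirs. Without HuD array 3 Prkcz (−1.61), Prkci (1.46), Dgkz (−1.36), Flot1 (−1.53), Sptan1 (−1.48) and Khsrp (1.86) did. Khsrp lost its call without HuD array 2 (1.85) and IgG array 1 (1.58), and Dgkz without IgG array 1 (−1.10).

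**Figure D4:**
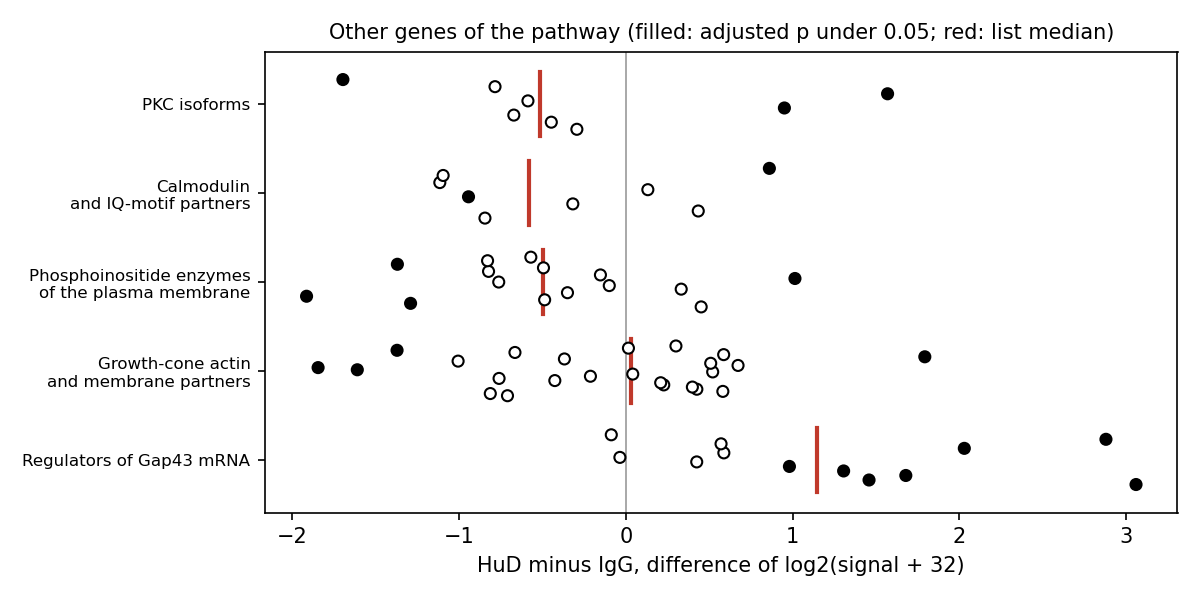
HuD minus IgG differences of log2(signal + 32) for the genes of the 5 lists, 1 point a gene, filled for limma adjusted p under 0.05, with the list median as a red line. The list of mRNA regulators has the highest median (1.14) and was made with earlier results of these arrays in view. Each list holds points on both sides of 0, the regulators with Igf2bp1 at −0.04 and Smn1 at −0.09.

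Markers of cell types were read in the same way. All 42 markers on the array had signals above 0 on each array, the lowest 1.3, and the neuronal genes Snap25 and Syt1 had input signals of 7145.7 and 5480.7. The granule cell marker Prox1, at 9.8 in the input, was dim. The single markers named here were chosen after their values were seen. The summed signal of 7 neuronal markers was 36834.0 to 48072.6 with HuD, 27694.0 to 30217.2 with IgG and 26951.0 in the input. For 6 astrocyte markers it was 13568.1 to 15509.0, 15724.1 to 19187.9 and 16003.3, and for 5 oligodendrocyte markers 13128.5 to 17544.5, 21882.1 to 27521.6 and 16649.8. For 7 markers of hippocampal principal cells it was 8454.1 to 9900.0, 6077.0 to 7164.3 and 4824.6, and for 5 interneuron markers 4848.2 to 7256.3, 7226.6 to 8034.4 and 7792.2. For 6 microglia markers it was 1415.5 to 1947.6, 2759.6 to 4468.7 and 4266.6, for 3 endothelial ones 60.8 to 77.2, 164.7 to 247.2 and 143.7, and for 3 of choroid plexus and blood 11847.3 to 15103.9, 16010.5 to 18359.6 and 8955.9. These sums rest on a few bright probe sets and give no direction for a cell type. Bcl11b alone had signals of 4728.0, 6121.2 and 6059.2 with HuD in the sum of principal cells, and Aldoc 6079.6 and 6797.1 with IgG in that of astrocytes. A summed signal also cannot tell fewer cells of a type from less RNA per cell. Beside the 8.35% of all genes called higher with HuD than with IgG and the 12.1% called lower, 1 of 7 neuronal ones was higher and 1 lower, 2 of 7 of principal cells were higher and 1 lower, and 1 of 5 of interneurons was higher and 3 lower. Also, 2 of 6 astrocyte, 1 of 5 oligodendrocyte and 2 of 6 microglia markers and 1 of 3 endothelial ones were lower and 0 higher, and of the 3 markers of choroid plexus and blood 0 were called. A difference between the marker lists was not tested. The part of these shifts in the differences of Gap43, Marcks and the other members was not tested.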

How the data were processed

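The authors deposited 1 intensity per probe set and array on a linear scale. The mean signal without the lowest and highest 2% was 150.0 on every array, so the arrays had been scaled alike. The software behind the signals is not given in the sources used here. No detection calls were used. Of 45101 probe sets, 64 array controls were left out. A platform annotation gave 34945 probe sets 1 symbol, 932 several and 9160 none. All 5 member genes were found by Entrez identifier in a RefSeq table of GRCm38.p6, used for names only because no build is given for the array.

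Log2(signal + 32) was fitted with limma 3.58.1 in R 4.3.3, with 1 mean per group and a mean-variance trend (3 residual and on average 5.18 prior degrees of freedom), and the steps were tested on simulated data. The number of arrays limits the precision. No low-signal filter was applied, so that each member was tested. The members, lists and tests were chosen with earlier results of these data known. From each list up to 4 genes were named, by the largest HuD minus IgG difference among those past the threshold and then by the lowest p, and the 3 genes most alike to each member. Listed genes without a probe set of 1 symbol were left out. Alternatives covered scaling, pseudocount, filter, trend, blocks and single arrays left out. Deviations of HuD and IgG arrays with the same title number correlated at −0.04 and 0.30 (HuD arrays 1 and 2 with IgG array 1) and 0.31 (HuD array 3 with IgG array 2). The deviations of the 2 IgG arrays mirror each other, so a correlation with 1 is the negative of that with the other. These values alone therefore cannot decide on a pairing. Not every value was over 0.1, and 2 HuD arrays, of different title forms, carry the number 1. The numbers were not taken to pair the arrays. Protein sequences were not used here.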

Additional observations from a re-analysis of the deposited data

Results flagged for a closer look

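For 2 dim or mid-range probe sets each HuD array differed from the IgG array of its title form in opposite directions in the 2 forms. The Marcks probe set 1430311_at was 0.58 higher with HuD in the first form and differed by −0.15 in the second. The Marcksl1 probe set 1435627_x_at differed by −0.012 in the first form and was 0.41 higher with HuD in the second. The mean difference of Nrgn also turned, from 0.72 to −0.30, but in the second form HuD array 3 was above and HuD array 2 below IgG array 2. The first form holds 1 array of each group and the second 2 HuD arrays and 1 IgG array, and the difference between the forms was not tested.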

How the results depend on the processing

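Numbers of members called depended on the settings. Against IgG, 3 members were higher as reported, 8 with 75th percentile centring, 5 with median centring, 6 with the dimmer probe sets left out and 5 without the variance trend. Of all 45037 probe sets, 2579 were higher as reported, 8624 with 75th percentile centring, 3717 with median centring and 2782 without the trend. With the dimmer ones left out it was 3309 of 22518. The number of members thus changed along with calls over the whole array. With single arrays left out 2 to 3 were higher and 0 to 1 lower. Against the input, 5 were higher as reported, 2 with 1 probe set for each brighter gene (5 members left), 0 with the title ending as a block, and 0 to 5 with single arrays left out. There Gap43 was lower (1 in place of 0) with median centring, a pseudocount of 1, the dimmer probe sets left out, or 1 probe set per gene. In that order, these settings called 2863 of 45037, 2035 of 45037, 3515 of 22518 and 2354 of 9096 probe sets lower, against 1444 of 45037 as reported. The pairs of members without overlap were 5 to 8 in place of 5 with single arrays left out, a count that leaving out an array can only keep or raise. The calls over all probe sets between HuD and IgG, 6497 as deposited, were 11241 with 75th percentile centring, 725 without HuD array 1, 3604 without HuD array 2 and 1251 without HuD array 3. Between IgG and input they were 61 with 75th percentile centring, 33 with a pseudocount of 1, 54 with the dimmer probe sets left out, 2 with 1 probe set per gene and 1 with median centring, in place of 0.

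Signs turned for differences that had not passed the test. Against IgG, Marcksl1 1435415_x_at was 0.058 with quantile normalization and 0.049 with 75th percentile centring. Against the input, Marcks 1437034_x_at was −0.042 with median centring and −0.041 with a pseudocount of 1. Between IgG and input, Gap43 was 0.036 with 75th percentile centring and 0.070 with the title ending as a block. Quantile normalization gave −0.27 for Basp1 and 0.019 for Marcks 1415973_at, and median centring −0.059 for Marcks 1415972_at and −0.12 for Marcksl1 1437226_x_at. The ratio of Marcksl1 to Basp1 was −0.22 with the mean of all probe sets of a gene. With single arrays left out, the range against IgG was −0.043 to 0.36 for Marcks 1430311_at and −0.34 to 0.80 for Nrgn, and against the input −0.16 to 0.28 for Marcks 1437034_x_at and −0.14 to 0.53 for Marcksl1 1415922_s_at. Between IgG and input it was −0.11 to 0.10 for Gap43, −0.21 to 0.53 for Marcks 1415972_at, −0.068 to 0.26 for Marcksl1 1437226_x_at and −1.50 to 0.070 for Marcksl1 1415922_s_at. For the ratios it was −0.069 to 0.42 for Marcksl1 to Basp1, −0.091 to 0.91 for Basp1 to Nrgn, −0.17 to 0.21 for Marcks to Marcksl1, −0.0040 to 1.31 for Marcks to Nrgn and −0.16 to 1.31 for Marcksl1 to Nrgn. The cause was not tested.

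The title number as a replicate block, on 4 arrays, gave 3 members higher and 1 lower against IgG. Signal over background was not measured here, and the dim probe sets of Marcks are limited by it.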

Other observations

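The members differed in how far the 3 HuD arrays spread. The highest HuD signal was 2.38 times the lowest for Gap43 and 2.11 times for Marcksl1 (1437226_x_at), both with HuD array 2 highest and HuD array 3 lowest. It was 1.33 times for Basp1 and 1.36 to 1.58 times for the Marcks probe sets 1456700_x_at and 1415971_at, with HuD array 2 highest and HuD array 1 lowest. For Nrgn it was 1.95 times, with HuD array 3 highest and HuD array 2 lowest. On the IgG arrays these ratios were 1.16 for Gap43, 1.26 for Marcksl1, 1.11 for Basp1 and 2.27 for Nrgn.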
